A study of Mus musculus with 15 samples.

Results

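The nuclear genes for subunits of the 5 oxidative phosphorylation complexes were followed in microglia after a single dose of a brain-penetrant TREM2 antibody. They were chosen by gene symbol, with earlier results of these data known. Symbols were taken that begin with Ndufa, Ndufb, Ndufc, Ndufs, Ndufv, Sdha to Sdhd, Uqcr, Cox4i1, Cox5 to Cox8 or Atp5. The Ndufaf assembly factors and symbols that end in -ps were left out. The rule found 88 of the 32372 genes in the matrix: 38 for complex I, 8 for complex II, 8 for complex III, 17 for complex IV and 17 for complex V. It also took in a few genes that are not structural subunits, among them the complex II assembly factors Sdhaf1 to Sdhaf4. All 15 mice were male C57BL/6J animals of 3.5 months with the hTfR KI genotype, and all received 1 dose of 10 mg/kg. By the paper, this knock-in places the human apical domain in the mouse transferrin receptor gene. The control mice received ATV:RSV and were sampled at day 1, and the others received ATV:4D9 and were sampled at day 1, 7, 14 or 28, with 3 mice per group. ATV:4D9 binds mouse TREM2, a lipid-sensing receptor of microglia, on an Fc that binds the transferrin receptor, and ATV:RSV carries the same vehicle. Cells labelled as cortex and hippocampus, from dissociated hemibrains, were enriched with CD45 beads and sequenced singly with a 3′ kit, which counts each captured RNA molecule once as a unique molecular identifier (UMI). Every comparison with ATV:RSV used the same 3 control mice, and the later days had no control of their own day.

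Complexes I and II pass electrons to ubiquinone, complex III passes them on to cytochrome c and complex IV to oxygen, while complexes I, III and IV pump protons that drive ATP synthesis by complex V. Complexes I, III, IV and V each combine subunits from the nuclear genome with a few from mitochondrial DNA, and complex II is wholly nuclear. All but complex II mix catalytic core subunits with small accessory ones, and some complex IV subunits have isoforms that differ between tissues. In microglia, shifts between this pathway and glycolysis accompany changes of state.

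The files held 102043 cells, 5667 to 7596 per mouse, with 32341960 to 70307384 UMIs per mouse. Median UMIs per cell were 8202 to 8996 at day 1 of ATV:4D9 and 4975 to 5750 in ATV:RSV. Cells with a UMI of Mki67 or Top2a, which mark dividing cells, made up 19.6% to 27.4% of cells at day 1 and 0.397% to 0.684% in ATV:RSV. Summed over 10 microglial marker genes, levels were 15308 to 17033 counts-per-million (CPM) of all UMIs at day 1 and 22552 to 24153 in ATV:RSV, and all 10 were detected. The 6 monocyte markers summed to 14.2 to 18.8 CPM at day 1 and 4.90 to 12.9 in ATV:RSV. Lists that were lower at day 1 in every mouse than in any control were those of astrocytes, at 116 to 121 against 221 to 271 CPM, oligodendrocytes, at 29.2 to 32.3 against 48.4 to 65.6, neurons, at 4.79 to 6.54 against 9.51 to 12.3, endothelial or mural cells, at a median of 9.37 against 23.5, and B cells, at 205 to 223 against 229 to 278. The sums of the border macrophage, neutrophil, erythrocyte and ependymal or choroid plexus lists overlapped between these groups. The neutrophil list reached 160 CPM in replicate 3 of day 7 and at most 10.1 in the other mice. Cells with at least 3 border macrophage markers made up 0.857% to 1.33% at day 1 and 0.308% to 0.499% in ATV:RSV. For at least 3 markers of any 1 list other than microglia, border macrophages included, this was 1.48% to 1.92% and 0.957% to 1.41%. The part of the higher UMIs per cell in this was not tested. The T or NK cell list stayed at or below 1.76 CPM in every mouse, and no marker of any list was at 0 over all mice. Of 100747 distinct cell barcodes, 1283 occurred in 2 or more mice.

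The subunit genes together took up a larger share of the RNA at day 1 than at any other time. They held 1.20%, 1.14% and 1.19% of all UMIs in the 3 ATV:RSV mice and 2.00%, 1.97% and 1.98% in the 3 mice at day 1 of ATV:4D9. The 2 groups lay far apart relative to the spread within each. Per cell this was 79.5, 65.3 and 72.9 UMIs in ATV:RSV and 198, 182 and 175 at day 1, a ratio of the means of 2.55, against 1.68 for the share. By day 7 the share was 1.26%, 1.21% and 1.22%, each just above the highest control, at day 14 it was 1.24%, 1.22% and 1.17%, above the highest control in 2 of 3 mice, and at day 28 it was 1.20%, 1.15% and 1.19% and overlapped the controls. Per cell the 9 mice of the later days held 69.3 to 84.8 UMIs of these genes, and each of these groups overlapped the controls.

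To ask which genes carried this, UMIs were summed per mouse and each gene was tested with limma-voom, with p-values adjusted over all 14260 genes that passed a filter on low counts. The p-values measure the spread between these mice. Of the 88 subunit genes 85 passed it. Ndufa4l2, with 76 UMIs over all mice, Cox7b2, with 4, and Cox8c, with 0, did not. A count of 0 for Cox8c allows up to 0.00424 CPM, for counting error only. At day 1, 78 of the 85 were higher than in ATV:RSV at an adjusted p under 0.05 and 1 was lower, while 34.7% of all genes tested were higher and 34.6% lower. Their median log2 fold change was 0.99, against -0.05 over all genes tested. At least a 2-fold higher level was seen in 41 of the 85 and in 1847 of all 14260 genes tested. The 6 genes that did not pass were Ndufa6, Sdha, Sdhaf1, Sdhaf2, Cox6b2 and Cox8b. Scaled by library size alone, with an all-gene median of -0.29, 75 were higher and 6 lower (Cox7a2l, Cox6b2, Sdhaf1, Sdhaf2, Sdha and Ndufa6), and the subunit median was 0.75, where 25.9% of all genes were higher and 48.8% lower. Without the cells that carried a UMI of Mki67 or Top2a, 78 were higher and 1 lower, with a median of 0.98. In that fit 33.8% of all genes were higher and 33.3% lower. Without cells that carried markers of other cell types, 78 were higher and 1 lower, with a median of 0.99, against 34.9% and 35.0% of all genes. With cells thinned to 3385 UMIs and the 10204 shallower cells of all mice left out, 77 were higher and 1 lower, with a median of 0.90. Of all genes 33.5% were then higher and 32.2% lower. That setting kept 6410, 5585 and 5722 of 7020, 6794 and 6487 cells in ATV:RSV and 6838, 6993 and 5651 of 7118, 7343 and 5998 at day 1, so it changed the cells as well as their depth.

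**Figure D1:**
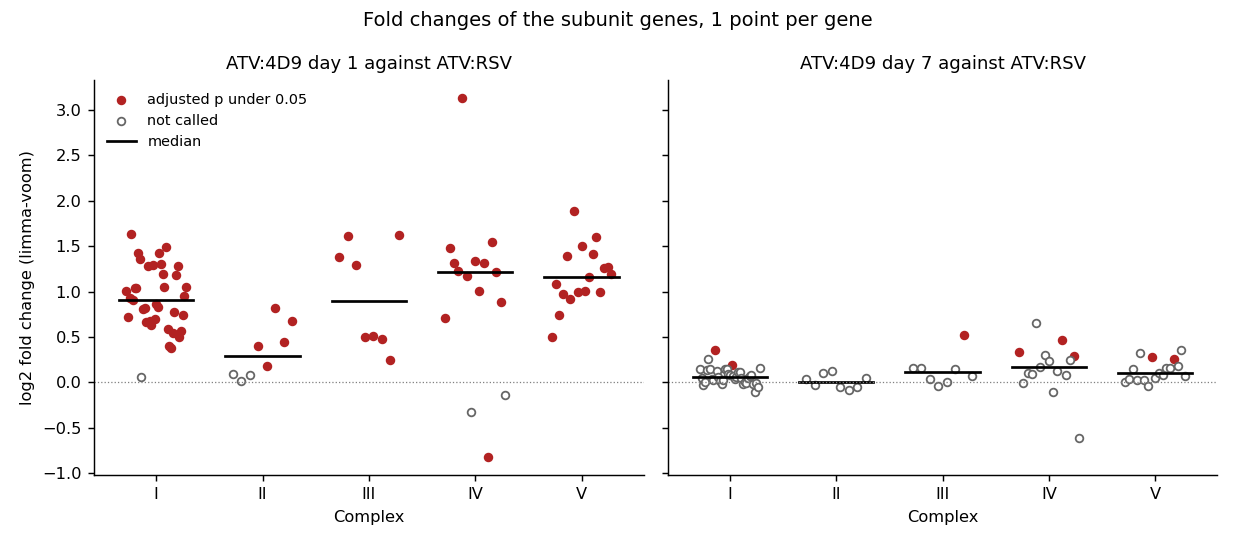
Log2 fold change of each tested subunit gene against ATV:RSV at day 1 and day 7 of ATV:4D9, grouped by complex, with 1 point per gene, red where the adjusted p was under 0.05, and a bar at the median. At day 1 the medians ran from 0.29 for complex II to 1.21 for complex IV, and at day 7 all 5 lay between 0.01 and 0.17.

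Complex I, the NADH dehydrogenase, had 36 of 37 tested genes higher at day 1, against 34.7% of all genes tested. Its median log2 fold change was 0.91. The 7 nuclear core subunits, which hold the flavin and the iron-sulfur clusters or line the ubiquinone site, all passed the test but had a median of 0.55, against 1.02 over the other 30. Ndufs1, the largest iron-sulfur subunit, was at 26.2, 25.3 and 29.6 CPM in ATV:RSV and 36.1, 35.3 and 35.6 at day 1, a log2 difference of 0.40 ± 0.063 (SE). The groups did not overlap. Ndufs7, Ndufs3 and Ndufs8 differed by 0.50 to 0.57. Ndufv1, the subunit that binds NADH, and its partner Ndufv2 stood highest in the core at 0.74 and 0.95. The largest change in the complex was that of Ndufa12, an accessory subunit added late in assembly. It was at 74.2, 68.1 and 70.7 CPM in ATV:RSV and 221, 215 and 227 at day 1, a 3.11-fold difference (limma-voom adjusted p = 1.37e-12), and was back at 72.3, 69.5 and 70.8 at day 7.

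Complex II, succinate dehydrogenase, moved least by its median, 0.29 over 8 genes. Of these 5 passed, all higher, where 34.7% of all genes tested were higher and 69.2% were called in either direction. Over the 4 subunits alone the median was 0.56. Sdhb, the iron-sulfur subunit, rose from 88.7, 96.6 and 96.8 CPM to 158, 162 and 179 CPM, a log2 change of 0.82 ± 0.061 (SE, limma-voom adjusted p = 7.31e-09). The membrane anchors Sdhc and Sdhd rose by 0.44 and 0.68. Sdha, the flavoprotein that oxidises succinate, was at 87.3, 81.7 and 88.9 CPM in ATV:RSV and 90.4, 90.8 and 92.7 at day 1, and did not pass (log2 difference 0.09, limma-voom adjusted p = 0.115). Its 3 values at day 1 lay just above those of the controls, and with library size scaling its difference was -0.15. The assembly factor Sdhaf1 was lowest of the complex, at 0.02, and its difference was below 0 with 5 of 18 alternative settings. Sdhaf4, which passed at 0.18, was at -0.06 with library size scaling.

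Complex III, cytochrome bc1, had all 8 genes higher, where 34.7% of all genes tested were. Uqcrc1 and Uqcrc2, the matrix-side core proteins, and Uqcrfs1, the Rieske iron-sulfur protein, rose by 0.47 to 0.50 on the log2 scale. Of the 5 small subunits, Uqcrb, Uqcr10, Uqcr11 and Uqcrq rose by 1.29 to 1.62. Uqcrq, a ubiquinone-binding subunit, went from 140, 123 and 128 CPM to 407, 394 and 404 CPM, a 3.08-fold change. The fifth, Uqcrh, the acidic hinge protein, was an exception. It was at 329, 318 and 313 CPM in ATV:RSV and 371, 373 and 392 at day 1, a log2 change of only 0.24 ± 0.047 (SE, limma-voom adjusted p = 0.000266) that fell to 0.00 with library size scaling.

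Complex IV, cytochrome c oxidase, had 12 of 15 tested genes higher and 1 lower, against 34.7% and 34.6% of all genes tested. Its range was the widest of the 5 complexes, from -0.82 to 3.14. Cox4i1, the ubiquitous form of subunit 4, was at 564, 605 and 597 CPM in ATV:RSV and 939, 949 and 1002 at day 1, a 1.64-fold change. Cox5a and Cox5b, which sit beside it, rose 2.78-fold and 2.49-fold. Among the paired isoforms, Cox6a1, the form found in most tissues, rose by 1.22 and Cox6a2, the form of heart and skeletal muscle, by 3.14. Cox6a2 was at 5.07, 4.46 and 5.23 CPM in ATV:RSV and 69.0, 33.6 and 34.4 at day 1. Its spread at day 1 came from replicate 1, and without that mouse its log2 change was 2.79. Its gene (chr7:128205435-128206387, mm10) lies on the opposite strand of Itgad, and the strand setting of the counting is not given in the sources used here. Cox7a2, the common form, rose by 1.32, and Cox7a1, the muscle form, by 1.00 from a mean of 0.544 ± 0.0575 to 1.11 ± 0.187 CPM (SD, n = 3). Cox6b1 rose by 1.17, while Cox6b2, known from testis, was at 1.92, 1.54 and 2.72 CPM in ATV:RSV and 1.56, 1.54 and 1.75 at day 1 and did not pass (-0.32, limma-voom adjusted p = 0.224). Cox8a rose by 0.88 and Cox8b did not pass. Ndufa4, named for complex I but now placed in complex IV, rose by 1.42.

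The only member that fell at day 1 was Cox7a2l, a relative of Cox7a2 that tethers complex III to complex IV in respiratory supercomplexes and of which C57BL/6 mice carry a shortened form. It was at 410, 456 and 435 CPM in ATV:RSV and 236, 251 and 248 at day 1, with no overlap between the groups. On the log2 scale it fell by 0.82 ± 0.043 (SE, adjusted p = 1.3e-10 in limma-voom), a change that stayed between -1.06 and -0.79 over 18 alternative settings. Per cell it went from 2.81 ± 0.0371 to 2.04 ± 0.0988 UMIs (SD, n = 3), while the UMIs per cell of the set as a whole rose.

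Complex V, the ATP synthase, had all 17 genes higher, with a median of 1.16, where 34.7% of all genes tested were higher. The c-ring, which turns as protons pass, is encoded by Atp5g1, Atp5g2 and Atp5g3, whose mature proteins are the same. Atp5g1 was at 128, 136 and 151 CPM in ATV:RSV and 489, 504 and 548 at day 1, a 3.71-fold change and the largest in the complex (limma-voom adjusted p = 5.86e-13). Atp5g3 rose 2.83-fold and Atp5g2 1.99-fold. In the catalytic head, Atp5b, the beta subunit that makes ATP, went from 215, 216 and 229 CPM to 451, 454 and 487 CPM. Its partner Atp5a1 rose least of the complex, by 0.50 on the log2 scale. The central stalk genes Atp5c1, Atp5d and Atp5e rose by 0.74, 0.97 and 1.40. A pseudogene is annotated under the names of Atp5c1, Uqcrh and 3 other members, and reads that such copies share cannot be assigned with certainty.

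Summed over its genes, each complex was higher at day 1 in every mouse than in any control. The ratio of mean CPM, on TMM-scaled totals, was 2.20 for complex V, 2.01 for complex III, 1.92 for complexes I and IV and 1.36 for complex II. For the unscaled share of all UMIs the ratio was lower, at 1.86, 1.70, 1.63, 1.62 and 1.15 for V, III, I, IV and II. The ratio of UMIs per cell was 2.82, 2.57, 2.47, 2.46 and 1.75 in the same order. Complex V was at 3178, 2962 and 3166 CPM in ATV:RSV and 6802, 6759 and 6939 at day 1. Complex II was at 376, 381 and 403 CPM in ATV:RSV and 516, 514 and 552 at day 1.

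**Figure D2:**
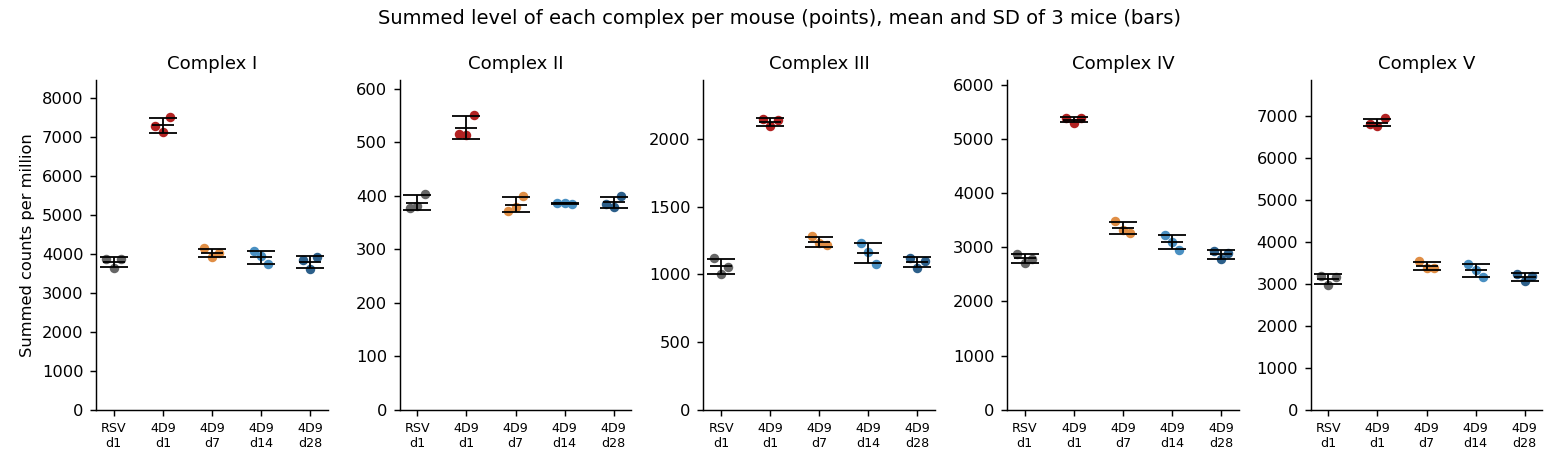
Summed CPM (TMM-scaled totals) of the genes of each complex in each mouse, with points for mice and bars for the mean and SD of 3 mice. In all 5 panels the 3 mice at day 1 of ATV:4D9 lie above all others, from 514 to 552 for complex II and from 6759 to 6939 for complex V.

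Within the set, genes with shorter coding sequences tended to have the larger changes. Over 84 members with an annotated coding length, Spearman's rho between coding length and log2 fold change at day 1 was -0.46 (Pearson's r with log2 length -0.36), a value across genes in the same 6 libraries that treats no gene as a replicate. Over the other 12370 genes rho was -0.19. The 22 members with up to 300 coding bases had a median log2 fold change of 1.33 and the 11 members above 1000 bases one of 0.50. In the same length classes the medians of the other genes were 0.43 and -0.11, and in each of 4 classes the subunit median lay above that of the other genes.

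**Figure D3:**
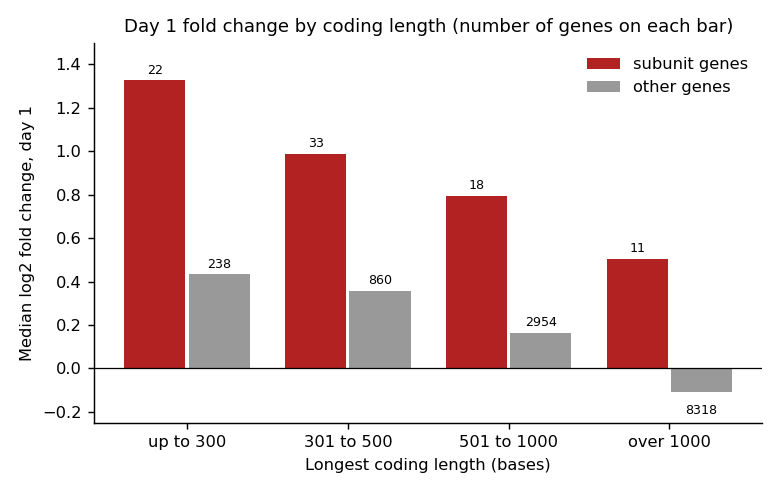
Median log2 fold change at day 1 against ATV:RSV by coding length (longest annotated coding sequence, in bases) for the subunit genes and for all other genes tested, with the number of genes on each bar. The subunit genes go from 1.33 in the shortest class to 0.50 in the longest, and the other genes from 0.43 to -0.11.

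Most of the change at day 1 was gone at day 7. Tested directly against day 1, 77 of the 85 genes were lower at day 7 and 4 were higher, with a median log2 difference of -0.89, while 33.9% of all genes tested were lower and 33.0% higher. Against ATV:RSV, 8 members were higher at day 7 and none lower, where 2.99% of all genes tested were higher, and the median was 0.07. With the batch as a replicate block the count was 16, all higher, and with DESeq2 13, where 4.75% and 4.46% of all genes tested were higher. With library size scaling 6 were higher and 1, Ndufs8, lower (-0.20), with a median of -0.021, where 2.22% of all genes were higher and 6.19% lower. Without replicate 2 of ATV:RSV 6 were higher and 1, the rare Ndufa4l2, lower, with a median of 0.041, where 1.86% of all genes were higher. The lowest p-values were those of Uqcrh, Cox7a2l, Cox4i1, Atp5g2 and Ndufa6, with log2 differences of 0.52, 0.47, 0.33, 0.28 and 0.35, and the other 3, named after their values were seen, were Cox8a at 0.29, Atp5l at 0.25 and Ndufb5 at 0.19. At day 14, 2 members, Uqcrh and Cox7a2l, were higher, where 0.386% of all genes tested were. The call of Uqcrh was lost in 7 of 18 alternatives and that of Cox7a2l in 8 of 18. At day 28 no gene passed in limma-voom without the replicate block, a background of 0.0%, while 2 genes passed with it and 14 in DESeq2, none of them a member; 0 members and 571 of all genes had an unadjusted p under 0.05, and the members' median was 0.02.

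Cox7a2l, Uqcrh and Ndufa6 reached their own highest mean level at day 7 rather than at day 1. Atp5g1 was at 134, 136 and 133 CPM at day 7, within the range of the controls. Cox7a2l was at 601, 608 and 588 CPM at day 7, above every control, and thus went from below the control level at day 1 to above it. It was then at 523, 503 and 504 CPM at day 14 and 455, 450 and 451 at day 28. Its log2 difference from ATV:RSV was 0.47 ± 0.043 (SE) at day 7 and 0.24 at day 14, and between day 7 and day 1 it was 1.29. Uqcrh was at 471, 462 and 446 CPM at day 7 and 404, 386 and 362 at day 14, above all controls at both times, and higher at day 7 than at day 1 by 0.28 (limma-voom adjusted p = 7.53e-05). Ndufa6, an accessory complex I subunit of the LYR family, was at 165, 149 and 154 CPM in ATV:RSV, 166, 160 and 162 at day 1 and 209, 194 and 195 at day 7. Its difference at day 1 was 0.06 (limma-voom adjusted p = 0.364) and that of day 7 from day 1 was 0.29 (limma-voom adjusted p = 0.000385). Cox6b2, at 2.47 ± 0.0951 CPM at day 7 (SD, n = 3), was the fourth gene higher at day 7 than at day 1, by 0.62, a call lost when any of 4 mice was left out.

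**Figure D4:**
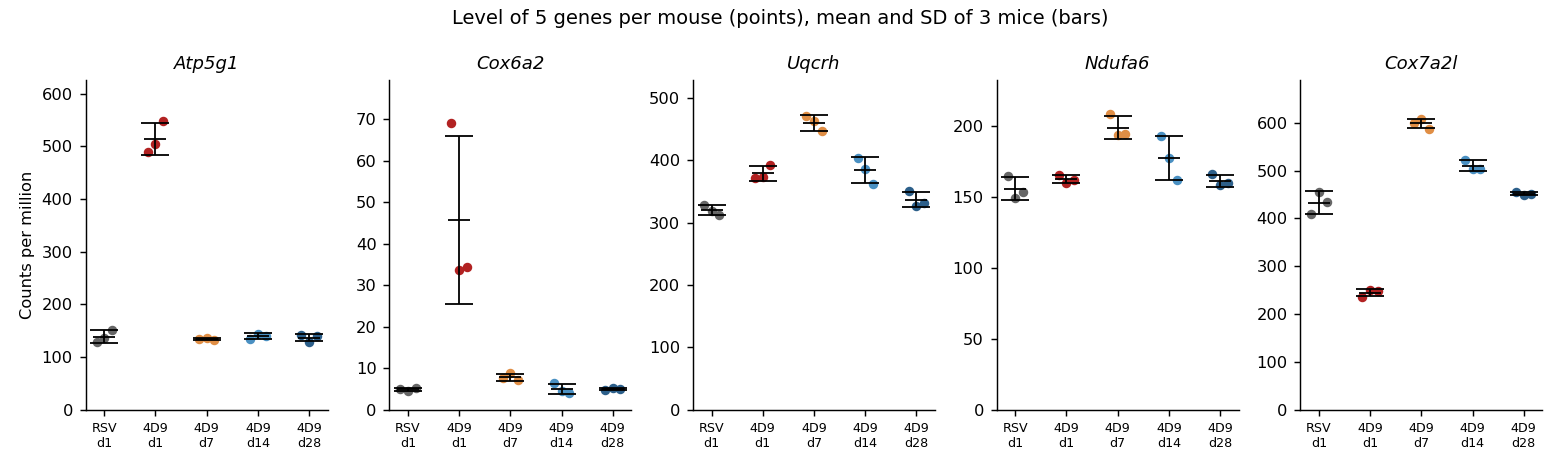
CPM of 5 genes in each mouse, with points for mice and bars for the mean and SD of 3 mice. Atp5g1 and Cox6a2 stand highest at day 1 of ATV:4D9, while Uqcrh, Ndufa6 and Cox7a2l stand highest at day 7, and Cox7a2l at day 1 lies below every other group at 236 to 251 CPM.

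The deposited table places each cell in cluster 0, 1 or 2. Cluster 2 held 87.3% to 93.5% of the cells at day 1 and 1.12% to 2.35% of those in ATV:RSV. Because the clusters were made with these genes too, only mice within a cluster were compared. Cells of a cluster were themselves grouped by their expression, which limits how far groups can differ within it. The part of this in the sizes below was not tested. In cluster 2 the subunit genes held 1.42%, 1.46% and 1.41% of UMIs in ATV:RSV, from 76 to 165 cells per mouse, and 2.04%, 2.00% and 1.99% at day 1. Of 82 tested, 69 were higher and 1 lower, with a median of 0.58, where 17.5% of all genes tested were higher. In this cluster 6.67% to 7.89% of the ATV:RSV cells carried markers of other cell types, against 1.58% to 2.06% at day 1, and 11.2% to 18.2% carried a UMI of Mki67 or Top2a, against 22.4% to 30.4%; their part in the difference was not tested. In cluster 0 the share was 1.18%, 1.11% and 1.16% in ATV:RSV and 1.39%, 1.31% and 1.43% at day 1, from 211 to 383 cells per mouse. There 31 of 85 were higher and 1 lower, with a median of 0.29, where 3.77% of all genes tested were higher, and the number called in either direction was 12 without replicate 1 of ATV:4D9 day 1, where 2.83% of all genes were called, against 5.09% with it. In cluster 1, 44 of 83 were higher and 2 lower, with a median of 0.29, where 6.36% of all genes tested were higher, and 19 were called without that mouse, where 4.65% of all genes were called, against 9.18% with it. The share and the number of molecules per cell did not move alike in every cluster. The ratio of subunit UMIs per cell at day 1 to that in ATV:RSV was 1.52 in cluster 2, 1.05 in cluster 1 and 0.88 in cluster 0, where the median cell held 4677 to 6139 UMIs at day 1 and 5852 to 6922 in ATV:RSV.

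**Figure D5:**
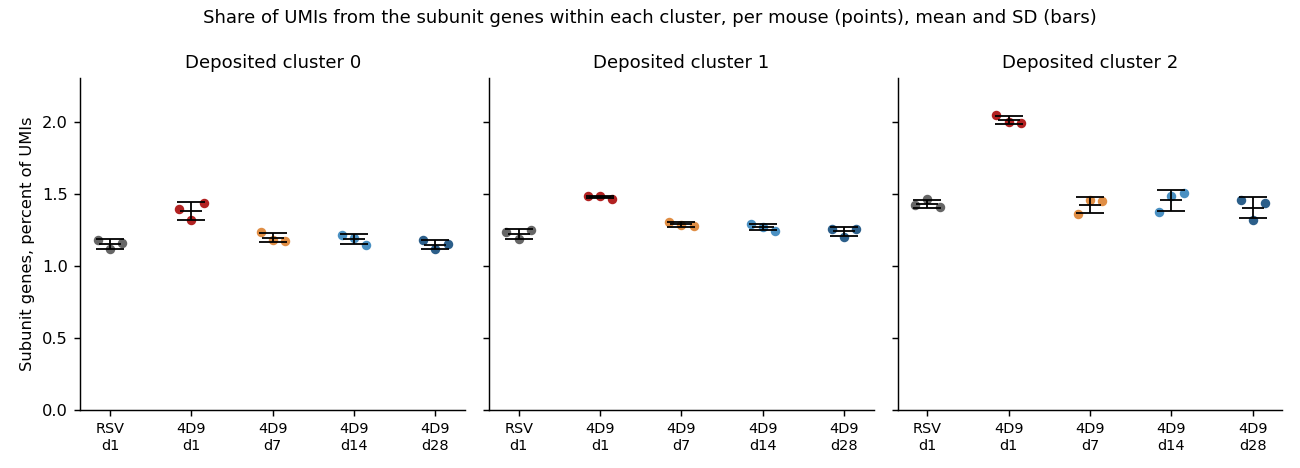
Percent of UMIs from the subunit genes in each deposited cluster, with points for mice and bars for the mean and SD of 3 mice. In all 3 clusters the day 1 mice of ATV:4D9 lie above the others, at 1.31% to 1.43% in cluster 0 and 1.99% to 2.04% in cluster 2.

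Some genes moved in the same direction in all 3 clusters, and the sizes of their changes were not tested against each other. Cox7a2l was lower at day 1 in all 3 clusters, by -0.60, -0.81 and -0.60 for clusters 0, 1 and 2. Atp5g1 was higher by 0.66, 0.71 and 0.96. None of the 7 core subunits of complex I passed in cluster 0 or 1, where their medians were 0.04 and 0.09. In cluster 2, 6 of 7 passed. The share of all genes called in either direction was 5.09%, 9.18% and 36.8% in clusters 0, 1 and 2. A count of none in clusters 0 and 1 is thus near that background. The difference between clusters was not tested. Of the 8 complex II genes none passed in cluster 0 or 1 and 2 did in cluster 2, where 5.09%, 9.18% and 36.8% of all genes were called in either direction, so these counts are near or below the background. Uqcrh was lower in cluster 1 by -0.21 and higher in cluster 2 by 0.21, and the difference between the clusters was not tested. Cox6a2 was higher by 1.36 and 1.80 in clusters 0 and 1 and did not pass in cluster 2 (0.67, limma-voom adjusted p = 0.307).

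Other genes of the pathway, from lists drawn up from general knowledge, were read beside the subunits at day 1. As background, 34.7% of all genes tested were higher at day 1 and 34.6% lower. All 13 mitochondrially encoded subunits were higher, with a median of 0.56. The lowest p-value was that of mt-Nd1, which went from 2049, 2049 and 2238 CPM to 3859, 3702 and 4213. At day 7, 3 of the 13 were higher, against 2.99% of all genes tested. Of 17 mobile carriers and enzymes that feed ubiquinone, 13 were higher and 1 lower. Cycs, cytochrome c, went from 63.2 ± 1.26 to 205 ± 6.66 CPM (SD, n = 3), a log2 change of 1.70 ± 0.050 (SE). All 3 ADP/ATP and phosphate carriers were higher, with the lowest p-value for the phosphate carrier Slc25a3 at 0.68. Of 14 tricarboxylic acid cycle genes 11 were higher and 1 lower, with the lowest p-value for Idh3a, a subunit of isocitrate dehydrogenase, at 1.53.

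Assembly factors were counted by complex, and several of these counts lie near the 34.7% of all genes that were higher and the 34.6% that were lower. For complex I, 10 of 15 tested were higher and 1 lower, with the lowest p-value for Ndufaf2 at 1.11. For complex II 2 of 4 were higher, with the lowest p-value for Sdhaf3 at 0.40, and these 4 are also members. For complex III 3 of 6 were higher and 2 lower, with the lowest p-value for Uqcc2 at 1.55, and for complex IV 19 of 23 were higher and 1 lower, with the lowest p-value for Coa5 at 0.76. In the complex V list 2 of 5 were higher, with the lowest p-value for Atpif1, the inhibitor that stops the ATP synthase from running in reverse, which went from 207, 187 and 206 CPM to 422, 422 and 424. Of 4 tested genes linked to supercomplexes or isoform switches, Cox7a2l among them, 2 were higher and 2 lower, and Higd1a had the lowest p-value and a log2 change of 1.65. Of the 14 regulators of mitochondrial biogenesis, 3 were higher and 6 lower, with a median of -0.05, the same as that of all genes tested. Tfam, which packages mitochondrial DNA, rose by 0.47, Nrf1, a factor that binds many respiratory chain promoters, fell by 0.41, and the coactivator Ppargc1a was near the limit of detection at 0.0818 to 0.193 CPM in ATV:RSV and did not pass (0.16, limma-voom adjusted p = 0.784).

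Promoters were read for members that moved together or apart. RefSeq windows of 300 bases (250 before and 50 after the start, GRCm38.p6) were found for 72 of the 88 genes, 77 windows in all. Both strands were searched for letters known from respiratory chain promoters. GCATGCGC, the core of the NRF1 site, was in 10 of the members' 77 windows, in 4.96% of windows of all genes tested and in 2.71% of all 32851 windows. CCGGAAG, bound by ETS factors such as GABPA, was in 26.0%, 17.0% and 8.86% of these 3 sets. AAGATGGCG, a YY1 site, was in 9.09%, 2.83% and 1.40%. AAGGTCA, a site of estrogen-related receptors, was in 10.4%, 3.32% and 4.72%, and CACGTG, the E-box, in 7.79%, 9.81% and 7.15%. The 10 tested members with the NRF1 letters had a median log2 fold change of 0.96 at day 1 and the 61 without them 1.00. With and without the other letters the medians were 0.99 (20 members) and 0.97 for ETS, 1.16 (7) and 0.98 for YY1, 1.24 (8) and 0.95 for the estrogen-related receptor site and 0.99 (5) and 0.98 for the E-box. The 250 bases before the start are shown, 5′ to 3′ on the gene's strand with matches in capitals, for Atp5g1 (chr11:96075632-96075881, minus strand), the gene with the largest change in complex V, for Cox6a1 (chr5:115348959-115349208, minus), as an example with NRF1 letters on both strands that overlap, and CTTCCGG, the ETS letters read on the other strand, and for Cox7a2l (chr17:83514334-83514583, minus), Ndufa6 (chr15:82354292-82354541, minus) and Uqcrh (chr4:116075071-116075320, minus), 3 genes whose own highest mean was at day 7.
Atp5g1: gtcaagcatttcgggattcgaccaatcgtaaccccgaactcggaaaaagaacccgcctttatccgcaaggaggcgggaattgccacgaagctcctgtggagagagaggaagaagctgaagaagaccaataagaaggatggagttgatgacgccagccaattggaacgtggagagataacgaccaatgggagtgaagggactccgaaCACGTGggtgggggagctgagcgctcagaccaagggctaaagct
Cox6a1: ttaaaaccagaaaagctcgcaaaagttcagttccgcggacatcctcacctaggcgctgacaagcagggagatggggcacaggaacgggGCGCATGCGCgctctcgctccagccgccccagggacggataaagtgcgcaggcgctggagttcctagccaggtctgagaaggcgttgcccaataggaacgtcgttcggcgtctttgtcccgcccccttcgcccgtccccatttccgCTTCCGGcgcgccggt
Cox7a2l: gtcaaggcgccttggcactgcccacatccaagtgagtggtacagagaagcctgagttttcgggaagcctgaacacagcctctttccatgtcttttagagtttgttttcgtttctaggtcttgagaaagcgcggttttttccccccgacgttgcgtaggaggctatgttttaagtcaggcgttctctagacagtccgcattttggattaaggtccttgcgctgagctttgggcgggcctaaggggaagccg
Ndufa6: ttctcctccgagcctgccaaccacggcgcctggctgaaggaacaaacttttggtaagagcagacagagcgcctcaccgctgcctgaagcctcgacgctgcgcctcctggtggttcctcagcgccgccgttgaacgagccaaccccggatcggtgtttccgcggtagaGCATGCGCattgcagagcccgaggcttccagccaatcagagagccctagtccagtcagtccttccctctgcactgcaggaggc
Uqcrh: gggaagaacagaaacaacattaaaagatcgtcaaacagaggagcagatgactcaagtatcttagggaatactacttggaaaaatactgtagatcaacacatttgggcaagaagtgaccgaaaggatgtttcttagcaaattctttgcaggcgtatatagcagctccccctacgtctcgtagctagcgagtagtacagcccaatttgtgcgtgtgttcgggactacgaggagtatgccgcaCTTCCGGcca
Atp5g1 held an E-box, Ndufa6 the NRF1 letters and Uqcrh the ETS letters, and the Cox7a2l sequence held none of the 5 motifs. RefSeq's start of Cox7a2l lies within the GENCODE gene (chr17:83501918-83517330), so other starts were not read.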

How the data were processed

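Libraries of 15 mice, 3 per group by GEO's labels, were analysed. A further control animal that the labels mention was not analysed here. The authors used Cell Ranger on mm10 (4.0.0 by the submitters' notes, while the paper gives other versions) and Seurat for clusters. They deposited raw UMI counts by gene and cell, and a table with each cell's mouse, cluster, total counts and percent of UMIs from mitochondrial genes. In all 102043 cells the total equalled the matrix sum. Filters on cells and the treatment of doublets are not given in the sources used here.

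For each mouse the counts of its cells were added up. After edgeR's filterByExpr (at least 10 counts, 15 in total) and TMM scaling, group means of 15 mice were fitted in limma-voom, using limma 3.58.1 and edgeR 4.0.16 under R 4.3.3. Benjamini-Hochberg adjustment ran over all genes, and genes with an adjusted p under 0.05 were called. CPM of single genes and of summed complexes uses TMM-scaled totals, while CPM of marker lists uses all UMIs. No mouse had fewer than 50 cells in a cluster (lowest 74, in cluster 2 at day 14), and all entered the cluster fits. The alternatives of the closing section include edgeR's quasi-likelihood test and DESeq2 1.42.0. The fits were tested on simulated data.

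By the labels, mice of each condition are spread over 3 batches, and the number of a replicate is that of its batch, which pairs them. Mice of a batch deviated from their group means with a mean r of 0.104 (30 pairs), mice of different batches with -0.0521 (60 pairs). No 2 mice of a group agreed within counting noise (chi-square per gene at least 10.6). Gene positions and coding lengths came from GENCODE M21 (mm10), with 1 entry for 86 of 88 members. A gene on the other strand overlaps 32 members.

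Named genes were, per complex, the highest and lowest change at day 1, members lower at day 1, up to 5 of lowest p at later days, core subunits and isoform pairs. In each other list the gene with the lowest p at day 1 was named, with Ppargc1a, Nrf1, Tfam, Cycs and Atpif1. The members and lists were chosen with earlier results of these data known. The values of 1 core subunit of complex I are not reported here.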

Additional observations from a re-analysis of the deposited data

Results flagged for a closer look

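Of the 85 tested subunit genes, 4 were higher at day 7 than at day 1 of ATV:4D9 by the test of that difference, while 77 were lower. The log2 difference was 1.29 for Cox7a2l, 0.62 for Cox6b2, 0.29 for Ndufa6 and 0.28 for Uqcrh, and all 3 mice at day 7 lay above all 3 at day 1 for each of them. Cox7a2l, Ndufa6 and Uqcrh kept this call under all 18 alternatives, while that of Cox6b2, with 275 UMIs over the 3 mice at day 1, was lost in 4 of 18.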

How the results depend on the processing

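With library size scaling the median of the subunit genes was 0.75 at day 1 and -0.021 at day 7, the day 14 count was 0, and the log2 differences at day 1 of Ndufa6 (-0.18), Sdha (-0.15), Sdhaf1 (-0.22), Sdhaf2 (-0.16) and Sdhaf4 (-0.062) fell below 0. Sdhaf1, -0.040 to 0.092 with 1 mouse left out, was also at -0.000340 with a filter of 1 CPM, -0.040 without replicate 1 of ATV:RSV, -0.020 without the 5% of cells with most UMIs and -0.024 with thinned cells. Cox8b, -1.38 to 2.00 with 1 mouse left out, was at 0.20 with the replicate block, 2.00 without replicate 3 of ATV:RSV and 1.15 without replicate 2 of ATV:4D9 day 1. With thinned cells the day 1 median was 0.90 and the day 14 count 0, and with only the 2 groups in the fit that count was 0. DESeq2 called 13 genes at day 7 and 52 in cluster 0, where it called 9.52% of all genes. The median of complex II was 0.56 over its subunits alone. The causes were not tested.

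The replicate block, which pairs mice of a batch, gave 16 genes at day 7 and 49 in cluster 0. In cluster 0 it called 8.92% of all genes against 5.09% without it, and at day 7 7.11% against 3.98%. The block left the counts at day 1, 14 and 28 at 79, 2 and 0. There it called 72.1%, 0.856% and 0.0140% of all genes, against 69.2%, 0.400% and 0% without it.

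Leaving out each mouse in turn gave 79 genes and medians of 0.92 to 1.00 at day 1, 6 to 9 genes at day 7 and 0 to 1 at day 14. In these fits 64.1% to 66.1%, 2.28% to 3.38% and 0% to 0.359% of all genes were called. In clusters 0, 1 and 2 leaving out a mouse gave 12 to 38, 19 to 43 and 55 to 71 genes, where 2.83% to 5.15%, 4.65% to 8.45% and 20.5% to 36.6% of all genes were called. The count in cluster 0 was 12 without replicate 1, 19 without replicate 2 or 3 of ATV:4D9 day 1 and 21 without replicate 2 of ATV:RSV, and that in cluster 1 was 19 and 29 without the first and last of these mice. A count was taken as unchanged within a ratio of 1.5 of the main count, and a median if it moved by less than the replicate spread. By these rules 187 of the values that answer a comparison were unchanged and 24 moved. Cox7b2, Cox8c and Ndufa4l2 had too few UMIs for the filter.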

Other observations

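Cox8b, an isoform of heart, skeletal muscle and brown fat, had UMIs in only 6 of 15 mice. They numbered 45 in replicate 3 of ATV:RSV, 4 and 8 in replicates 1 and 3 of ATV:4D9 day 1, 9 in replicate 1 of day 7, 107 in replicate 2 of day 14 and 60 in replicate 1 of day 28. The ependymal or choroid plexus marker list (Ttr, Foxj1, Ccdc153, Folr1 and Enpp2) summed to 245, 112, 506 and 216 CPM in the 4 of these mice outside ATV:4D9 day 1, in the order given, and to at most 23.8 CPM in every other mouse. Their part in the Cox8b values was not tested.

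Cox4i2, the second form of subunit 4, which is not among the members, was at 0.102, 0.169 and 0.215 CPM in ATV:RSV and 0.424, 0.425 and 0.599 at day 1 (log2 difference 1.54, limma-voom adjusted p = 0.000922). Its ATV:RSV values were about as low as those of Ppargc1a, near the limit of detection. In the synthesis of ubiquinone, Pdss1, which builds its side chain, was at 1.98, 2.15 and 2.70 CPM in ATV:RSV and 8.64, 10.3 and 10.2 at day 1, and Coq8a, a kinase-like regulator, at 5.99 ± 1.07 CPM in ATV:RSV and 1.85 ± 0.143 at day 1 (SD, n = 3). Surf1, an assembly factor of complex IV, was the only one of its list called lower, by -0.52. Cox4i2, Pdss1, Coq8a and Surf1 were chosen after their values were seen.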
